A study of Mus musculus with 8 samples.

Results

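Genes of protein folding and of the unfolded protein response were followed in mouse CD4 T cells sorted by KLF2 and cultured with or without T cell receptor stimulation. The set was 44 genes of 25124 in the deposited table, chosen by name and matched by gene symbol. It held 24 genes of the endoplasmic reticulum (ER), 17 of the cytosol and 3 of the mitochondria. The ER genes were 15 for folding, 3 sensors and factors, and 6 for ER-associated degradation. The cytosolic genes were 10 of the heat shock group and 7 subunits of the chaperonin TRiC. All 44 passed the filter on low counts, which left 19146 genes to test.

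Proteins that enter the secretory pathway are folded in the ER by Hspa5 (BiP), by Hsp90b1 (GRP94), by the lectin chaperones Calr and Canx, and by protein disulfide isomerases. When unfolded protein builds up there, the sensors IRE1 (Ern1), ATF6 and PERK start the unfolded protein response. IRE1 splices the mRNA of Xbp1 into the form that encodes an active transcription factor. XBP1 and ATF6 raise genes for folding and for ER-associated degradation, which returns misfolded proteins to the cytosol for the proteasome. The cytosol has its own program under HSF1, and its chaperonin TRiC folds actin, tubulin and other proteins. In the mitochondrial matrix, Hspa9 takes part in import and Hspd1 with Hspe1 forms the folding chamber. T cells that are stimulated through the receptor grow, divide and secrete cytokines, and so make more protein.

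Splenocytes came from mice that carry a KLF2(GFP) and a FOXP3(RFP) reporter, and all 8 libraries share these alleles. FOXP3-negative CD44hi cells, the surface state of activated and memory CD4 T cells, were sorted as KLF2+ or KLF2-. Each population then spent 48 h in culture, either untreated or with antibodies to CD3 (2.5 micrograms/mL), part of the antigen receptor, and to CD28 (1.25 micrograms/mL), which gives costimulation. The 4 groups had 2 libraries each, numbered 1 and 2 in KLF2+ cells and 3 and 4 in KLF2- cells. The age and strain of the mice, and whether replicates were separate animals or cultures, are not given in the sources used here, so p-values measure only the spread between these libraries, which may be technical.

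The libraries differed in how much of their sequence came from exons. They held 33.9 M to 45.6 M aligned tags (M, 1e6), but exon reads ran from 2.99 M in stimulated KLF2- replicate 4 to 36.6 M in stimulated KLF2+ replicate 2. Background, read from 1464 olfactory and vomeronasal receptor genes that T cells are not known to express, made up 0.401% to 20.1% of exon reads, again with these libraries at the ends. Values are therefore given under 2 settings. The first is TMM on the counts as deposited. The second, called background correction here, subtracts this background and also takes TMM from abundant genes alone (50 CPM or more), so where the 2 differ the parts of these steps cannot be told apart from them alone. Over all genes the median log2 fold was -0.25 and -0.24 under these for the KLF2+ response, 0.06 and 0.13 for the KLF2- response, and -0.19 and -0.47 for KLF2+ against KLF2- with stimulus. Klf2 itself stood at 303 and 379 CPM (TMM-scaled reads per 1e6) in unstimulated KLF2+ cells and at 41.0 and 65 CPM in unstimulated KLF2- cells. With stimulus Klf2 was at 93.5 and 139 CPM in KLF2+ and 46.5 and 75.8 CPM in KLF2- cells, a log2 difference of 0.93 by TMM (edgeR adjusted p = 0.024) and of -0.39 after background correction with no call, and in TPM these groups overlapped. Cd4 was at 475 CPM to 1046 CPM in all libraries. Markers of other cells were present: the summed level of 12 myeloid genes was 917 and 1672 CPM in unstimulated KLF2+ cells and 42.4 to 95.2 CPM in the other 6 libraries. Over all 8 libraries 8 B cell genes summed to 56.7 to 235 CPM and 7 CD4 T cell genes to 1862 to 5114 CPM.

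Promoters show which of these genes carry a written copy of the elements named for the pathway. RefSeq promoters (GRCm38.p6, the assembly of mm10), 250 bases before to 50 after each start, were found for 34 of the 44 genes. The ER stress element (ERSE: CCAAT, 9 free bases, CCACG, on either strand) was in 8 of the 34, against 0.137% of 27025 genes. Of these 8, 7 were ER folding genes (Hspa5, Hsp90b1, Calr, Canx, Pdia6, Creld2 and Dnajc3) and 1 was Syvn1 of ER-associated degradation. The shorter ERSE-II (ATTGG, 1 free base, CCACG, either strand) was in Dnajb11 and Herpud1, against 0.0444% of genes. A heat shock element (HSE: GAA, 2 free bases, TTC, 2 free bases, GAA, either strand) was in Hspd1, Hspe1 and Hsph1, against 0.662% of genes. The core TGACGTG was in Hspa5 and in 2.22% of genes, and the only matches that overlapped each other were the HSE pair that Hspd1 and Hspe1 share. The 150 bases before the start are printed 5′ to 3′ on the gene's strand for 9 genes, with the match in capitals, so that the responses given later can be set beside them. A match is a description of letters and not a tested site.
Hspa5 (chr2:34771940-34772089, + strand): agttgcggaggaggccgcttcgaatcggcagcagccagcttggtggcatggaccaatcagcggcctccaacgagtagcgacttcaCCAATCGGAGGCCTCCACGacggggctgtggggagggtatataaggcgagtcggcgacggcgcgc
Hsp90b1 (chr10:86705445-86705594, - strand): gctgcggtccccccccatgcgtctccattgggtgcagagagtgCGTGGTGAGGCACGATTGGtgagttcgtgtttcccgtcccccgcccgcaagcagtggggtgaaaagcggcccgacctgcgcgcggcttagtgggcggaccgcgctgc
Canx (chr11:50325674-50325823, - strand): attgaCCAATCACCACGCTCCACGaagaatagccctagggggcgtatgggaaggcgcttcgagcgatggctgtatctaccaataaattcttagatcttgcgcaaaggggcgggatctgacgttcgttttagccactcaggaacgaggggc
Pdia6 (chr12:17266439-17266588, + strand): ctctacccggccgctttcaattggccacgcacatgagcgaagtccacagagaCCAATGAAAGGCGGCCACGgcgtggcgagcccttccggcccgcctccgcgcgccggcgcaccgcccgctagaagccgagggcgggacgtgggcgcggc
Creld2 (chr15:88819496-88819645, + strand): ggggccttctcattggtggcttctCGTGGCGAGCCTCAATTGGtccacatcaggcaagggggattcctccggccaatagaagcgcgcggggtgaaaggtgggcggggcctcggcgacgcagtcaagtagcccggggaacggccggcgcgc
Dnajc3 (chr14:118937782-118937931, + strand): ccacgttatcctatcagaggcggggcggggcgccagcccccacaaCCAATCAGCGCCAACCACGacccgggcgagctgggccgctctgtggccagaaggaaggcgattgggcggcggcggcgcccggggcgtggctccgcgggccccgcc
Syvn1 (chr19:6046426-6046575, + strand): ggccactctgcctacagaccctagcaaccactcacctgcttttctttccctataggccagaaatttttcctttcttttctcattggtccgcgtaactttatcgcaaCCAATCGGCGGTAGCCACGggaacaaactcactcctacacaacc
Herpud1 (chr8:94386279-94386428, + strand): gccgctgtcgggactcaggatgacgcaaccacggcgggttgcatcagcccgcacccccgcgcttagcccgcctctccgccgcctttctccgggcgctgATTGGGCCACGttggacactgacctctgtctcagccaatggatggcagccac
Hspe1 (chr1:55087998-55088147, + strand): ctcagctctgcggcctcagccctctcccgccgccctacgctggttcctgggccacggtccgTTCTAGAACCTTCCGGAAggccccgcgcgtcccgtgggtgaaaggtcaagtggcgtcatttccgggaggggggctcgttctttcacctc
The capitals mark ERSE in the first 7 (on the opposite strand in Hsp90b1 and Creld2), ERSE-II in Herpud1, and the HSE pair in Hspe1, which lies in the stretch between its start and that of Hspd1 on the other strand. In Hspa5 the ERSE lay 65 to 47 bases before the start, in Pdia6 98 to 80, and in Syvn1 44 to 26.

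Levels per length (TPM, reads per exon length scaled to a common sum) set the members apart by orders of magnitude. Hspa8, the constitutive cytosolic HSP70, was at 349 to 1245 TPM over the 8 libraries. Hsp90ab1, the constitutive HSP90, was at 304 to 776 TPM, Pdia3, a disulfide isomerase that works with Calr and Canx, at 350 to 505, and Hspa5 at 221 to 560. At the other end stood the stress-inducible HSP70 genes Hspa1a and Hspa1b, at 0.286 to 3.16 and 0.434 to 5.73 TPM, and the sensors Ern1 and Atf6, at 1.22 to 8.16 and 2.88 to 6.54 TPM. The factor Xbp1 was at 72.5 to 200 TPM. The plot of all members by library shows the stimulated KLF2+ pair to the right of the other libraries in most ER folding genes, in every TRiC subunit and in every mitochondrial gene.

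**Figure D1:**
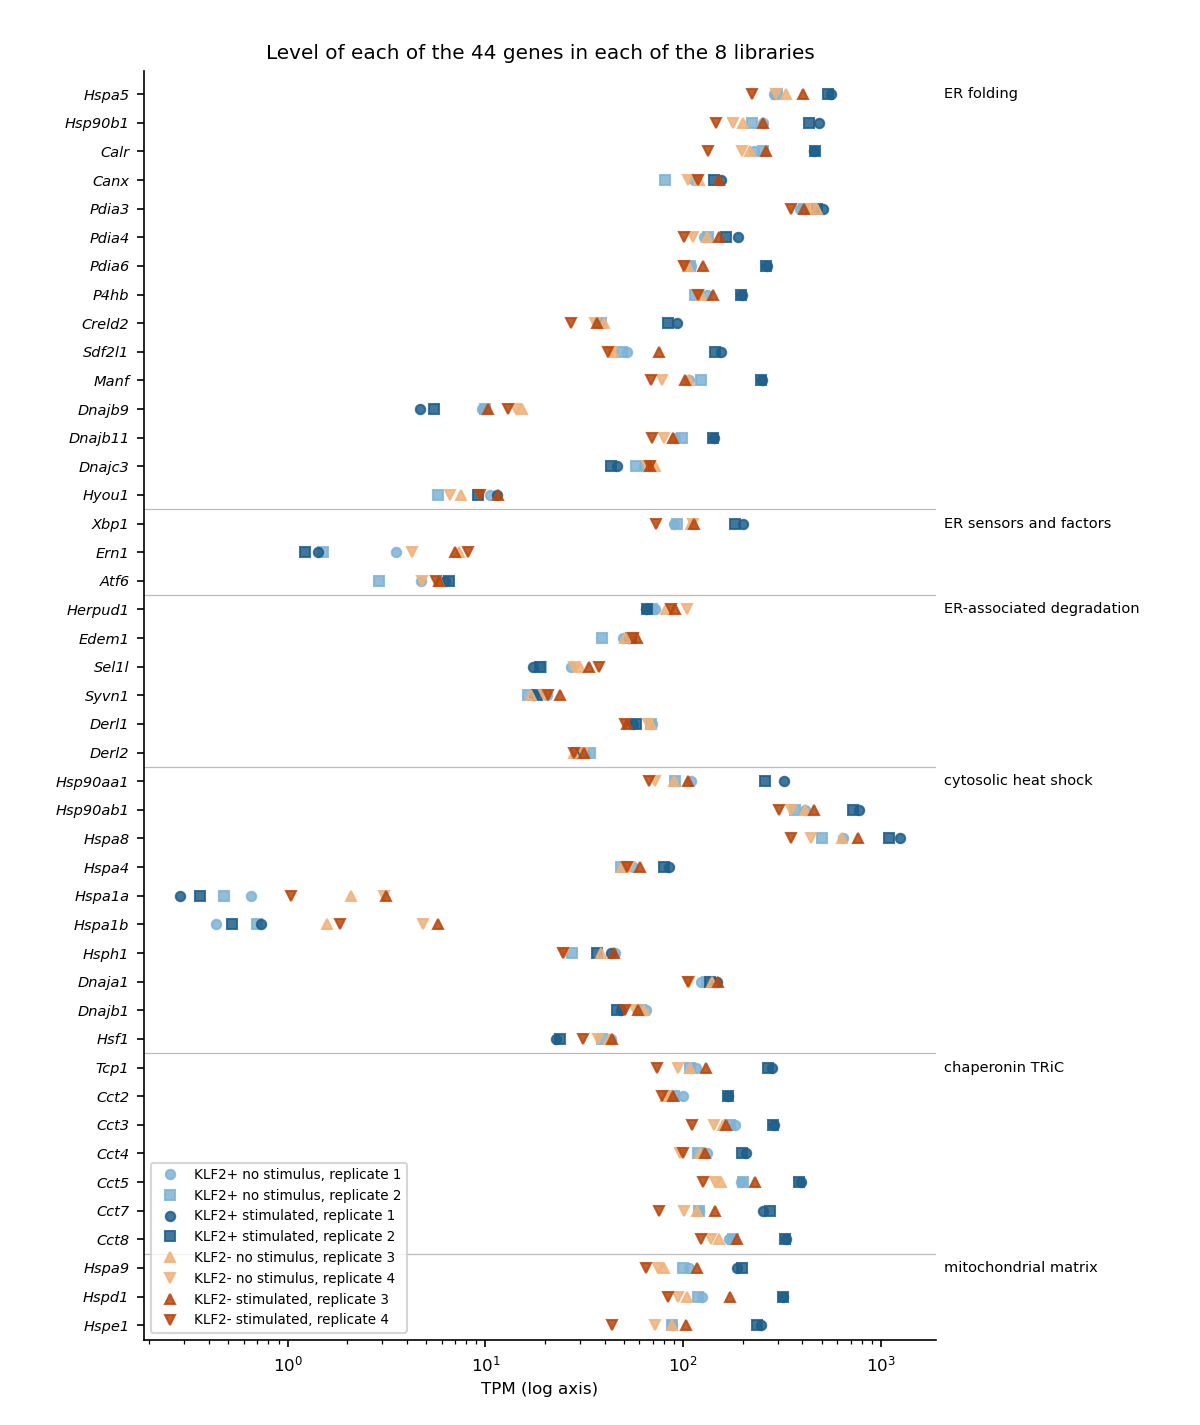
TPM of each gene on a log axis, 1 row per gene grouped by role, with 1 point per library (colour: group; shape: replicate number). Hspa8 reached 1245 TPM in stimulated KLF2+ replicate 1, whereas Hspa1a and Hspa1b stayed under 6 TPM in every library.

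Stimulation raised most of the set in KLF2+ cells. With Benjamini-Hochberg adjustment over all genes, edgeR's quasi-likelihood test called 31 of the 44 genes higher with stimulus and 0 lower, where 19.7% of all genes tested were higher and 17.4% lower. The genes that rose included 13 of 15 for ER folding, 7 of 7 TRiC subunits and 3 of 3 mitochondrial genes, but 2 of 6 for ER-associated degradation and 4 of 10 of the heat shock group. After background correction 29 were higher and 1, Hsf1, was lower, against 12.7% and 16.4% of all genes. The median log2 fold change of the 44 was 1.36, and 0.92 after background correction. Without unstimulated KLF2+ replicate 1, which leaves 1 library in that group and so rests on the spread of the other groups, 13 were higher, with 6.96% of all genes. DESeq2 called 32 of the 44 higher, and 7497 of all genes in either direction. The share of tags in exons moved with this comparison, from 23.6% and 43.9% without to 62.0% and 80.3% with stimulus in KLF2+ cells, and from 18.1% and 19.5% to 12.7% and 7.96% in KLF2- cells. Its part in the results was not tested. In TPM, 30 genes had both stimulated libraries above both unstimulated ones and 10 had both below, where 17.6% and 63.2% of all genes did.

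Among ER folding genes, Pdia6, a disulfide isomerase, showed the smallest p. It stood at 109 and 108 TPM in unstimulated and 266 and 260 TPM in stimulated KLF2+ cells, and at 105 and 101 and then 126 and 101 TPM in KLF2- cells. Both stimulated KLF2+ libraries lay above the other 6. The KLF2+ log2 fold change was 1.94 ± 0.26 (SE with 2 libraries in each group; edgeR adjusted p = 0.0014), and 1.43 ± 0.13 after background correction. Creld2, an ER resident with disulfide isomerase activity, was at 37.1 and 38.2 TPM without and 93.3 and 83.9 TPM with stimulus in KLF2+ cells, and at 39.6 and 35.6 and then 36.6 and 27.2 TPM in KLF2- cells. The KLF2+ log2 fold change was 1.89 ± 0.26 (edgeR adjusted p = 0.0015), and 1.40 ± 0.18 after background correction. The KLF2- libraries of Creld2 showed no shift upward, and both stimulated ones lay below replicate 3 of the unstimulated group. Sdf2l1, a partner of ER HSP40 and HSP70 proteins, was at 51.7 and 49.1 and then 155 and 144 TPM in KLF2+ cells, and at 44.1 and 43.7 and then 75.3 and 41.6 TPM in KLF2- cells. It had the largest log2 fold change of the ER genes, 2.24 ± 0.32 (edgeR adjusted p = 0.0017), and 1.73 ± 0.24 after background correction. Manf, a secreted and ER-resident factor, was at 107 and 123 and then 249 and 246 TPM in KLF2+ cells and at 107 and 78.2 and then 102 and 68.3 TPM in KLF2- cells, with a KLF2+ log2 fold change of 1.76 ± 0.31 (edgeR adjusted p = 0.0044). In stimulated KLF2- cells, replicate 3 was above both unstimulated libraries for Pdia6 and Sdf2l1 and not for Creld2 or Manf.

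Hspa5, the main HSP70 of the ER and the protein that holds the sensors inactive, was at 286 and 298 TPM in unstimulated and 560 and 538 TPM in stimulated KLF2+ cells. In KLF2- cells it was at 331 and 294 and then at 401 and 221 TPM. The stimulated KLF2+ libraries were the highest of the 8, and the stimulated KLF2- libraries lay on either side of the unstimulated pair. The log2 fold change in KLF2+ cells was 1.57 ± 0.37 (edgeR adjusted p = 0.013), and 1.05 ± 0.23 after background correction. Hsp90b1, Calr, Canx, Pdia3, Pdia4, P4hb and Dnajb11 also rose, by 0.96 (Pdia3, a disulfide isomerase) to 1.62 (Hsp90b1), and by 0.44 to 1.09 after background correction. Hyou1, a large HSP70-like ER chaperone, rose by 1.08, a call that was lost after background correction (0.62 ± 0.30).

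Dnajb9 and Dnajc3, both J-domain partners of Hspa5, were the ER folding genes that did not pass. Dnajb9 (ERdj4) stood at 9.56 and 9.98 TPM without and at 4.66 and 5.51 TPM with stimulus in KLF2+ cells, and at 15.2 and 14.3 and then 10.3 and 13 TPM in KLF2- cells. On this scale both stimulated KLF2+ libraries were the lowest of the 8, while in TMM-scaled CPM the KLF2+ groups overlapped. The log2 fold change was -0.28 ± 0.29, and -0.72 ± 0.31 after background correction, neither past the threshold. Dnajc3 (P58IPK) was at 63.6 and 57.7 and then 46.2 and 43.1 TPM in KLF2+ cells, and between 65.4 and 72 TPM in KLF2- cells. A log2 fold change of 0.24 ± 0.21 by TMM was not called, and its sign turned to -0.28 ± 0.12 after background correction. Dnajc3, like Hspa5, has the fixed CCAAT and CCACG of an ERSE in the sequence printed above, with other free bases between them. Against Hspa5 within each library, which no scaling alters, Dnajb9 made 3.34% and 3.35% of the Hspa5 TPM in unstimulated and 0.833% and 1.02% in stimulated KLF2+ cells, and 2.57% to 5.87% in the KLF2- libraries. Hspa5 itself rose in KLF2+ cells, and a fall was not particular to Dnajb9. Dnajc3 went from 22.2% and 19.4% to 8.25% and 8.02% there, and Herpud1 from 25.3% and 23.5% to 11.5% and 12.2%. Xbp1 and Sdf2l1 went up by this measure, and Hsp90b1 overlapped. Background reads remain in these percentages and weigh more on Dnajb9, with 58.5 to 371 reads per library, than on Hspa5.

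The transcription factor and 1 of the sensors rose. Xbp1 was at 90.0 and 92.8 TPM in unstimulated and 200 and 183 TPM in stimulated KLF2+ cells, and at 109 and 112 and then 114 and 72.5 TPM in KLF2- cells. Its log2 fold change in KLF2+ cells was 1.73 ± 0.31 (edgeR adjusted p = 0.0046), and 1.22 ± 0.19 after background correction. Counts per gene hold both the unspliced and the spliced mRNA, so this value says nothing of splicing. Atf6 was at 4.74 and 2.88 and then 6.24 and 6.54 TPM in KLF2+ cells, and between 4.77 and 5.84 TPM in all KLF2- libraries. Stimulation raised it in KLF2+ cells by 1.47 ± 0.22 (edgeR adjusted p = 0.0021), and 1.20 ± 0.31 after background correction. Background weighs on the KLF2- levels of Atf6, whose exon length is 7445 bases. Stimulated KLF2- replicate 4 held 101 reads for it, most of which the receptor density of 8.83 reads per kb would give. Ern1, the sensor that splices Xbp1, was at 3.54 and 1.51 and then 1.42 and 1.22 TPM in KLF2+ cells, and at 7.31 and 4.26 and then 7.06 and 8.16 TPM in KLF2- cells. It did not pass in KLF2+ cells (-0.17 ± 0.39, and -0.38 ± 0.50 after background correction), and all 4 KLF2- libraries lay above all 4 KLF2+ libraries.

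Genes of ER-associated degradation moved less than those for folding. Edem1, a lectin that marks misfolded glycoproteins, was at 49.5 and 38.9 TPM without and 53.2 and 54.3 TPM with stimulus in KLF2+ cells, and between 50.7 and 58.4 TPM in all KLF2- libraries. Stimulation raised it by 0.98 ± 0.21 (edgeR adjusted p = 0.0092), and 0.45 ± 0.13 after background correction. Syvn1 (HRD1), the ubiquitin ligase of the pathway, was at 20.4 and 16.5 and then 17.7 and 18.2 TPM in KLF2+ cells. The stimulated libraries lay between the unstimulated ones on this scale. By TMM it rose by 0.65 ± 0.21 (edgeR adjusted p = 0.037), a call lost after background correction (0.16 ± 0.16). Herpud1, Sel1l, Derl1 and Derl2, which build the channel around Syvn1, had log2 fold changes of 0.36 (Sel1l) to 0.54 (Herpud1), and of -0.16 (Sel1l) to 0.02 (Herpud1) after background correction, with no call. The median of the 6 genes was 0.51, and 0.00 after background correction, beside 1.36 and 0.83 for the 15 folding genes.

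In the cytosolic heat shock group, Hsp90aa1, Hsp90ab1, Hspa8 and Hspa4 rose with stimulus in KLF2+ cells, and the other 6 genes were not called by TMM. Hsp90aa1, the inducible HSP90, was at 110 and 90.7 TPM without and 322 and 259 TPM with stimulus in KLF2+ cells, and at 90.2 and 71.6 and then 105 and 67.2 TPM in KLF2- cells. Stimulation raised it by 2.22 ± 0.32 (edgeR adjusted p = 0.0018), and 1.69 ± 0.22 after background correction. Hsp90ab1 was at 414 and 365 and then 776 and 721 TPM in KLF2+ cells, and at 411 and 351 and then 460 and 304 TPM in KLF2- cells. It rose by 1.62 ± 0.33 (edgeR adjusted p = 0.0070), less than Hsp90aa1, so that the TPM of Hsp90ab1 was 3.76 and 4.03 times that of Hsp90aa1 in unstimulated and 2.41 and 2.79 times in stimulated KLF2+ cells. In the KLF2- libraries that ratio was 4.37 to 4.90. Hspa8 was at 639 and 500 and then 1245 and 1095 TPM in KLF2+ cells, and at 637 and 443 and then 768 and 349 TPM in KLF2- cells. It rose by 1.73 ± 0.43 (edgeR adjusted p = 0.015), and by 1.19 ± 0.33 after background correction. Hspa4, an HSP110-type exchange factor, was at 56.0 and 48.3 and then 85 and 79.6 TPM in KLF2+ cells, and rose by 1.34 ± 0.23 (edgeR adjusted p = 0.0039). For Hsp90aa1, Hsp90ab1, Hspa8 and Hspa4 alike, the stimulated KLF2+ libraries were the highest of the 8.

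Hsph1, Dnaja1 and Dnajb1, HSP110 and HSP40 co-chaperones, had log2 fold changes of 0.86, 0.82 and 0.27 with no call, and of 0.32, 0.31 and -0.25 after background correction. Hsf1, the factor of the heat shock response, was at 43.0 and 38.9 TPM without and 22.8 and 23.7 TPM with stimulus in KLF2+ cells, and at 42.1 and 36.9 and then 43.6 and 31.3 TPM in KLF2- cells. Both stimulated KLF2+ libraries were the lowest of the 8 on this scale. Its log2 fold change was -0.14 ± 0.25 by TMM and not called, and it fell by 0.65 ± 0.17 after background correction. Hspa1a and Hspa1b, near-identical neighbours whose reads can be split between them, were at 0.653 and 0.476 and at 0.434 and 0.700 TPM in unstimulated KLF2+ cells. With stimulus they were at 0.286 and 0.360 and at 0.733 and 0.526 TPM. In the KLF2- libraries Hspa1a was at 2.08, 3.09, 3.16 and 1.03 TPM and Hspa1b at 1.58, 4.83, 5.73 and 1.84 TPM, replicates 3 and 4 without and then with stimulus. Neither was called in KLF2+ cells, where both had under 1 TPM. Receptor genes held 8.59 reads per kb in unstimulated KLF2+ replicate 1 and 8.83 in stimulated KLF2- replicate 4. Over exon lengths of 2795 (Hspa1a) and 2807 bases (Hspa1b) that background exceeds the reads counted. These were 13.5 and 9 in the KLF2+ library and 7 and 12.5 in the KLF2- library. In the other libraries the counts were above it.

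The 7 TRiC subunits of the set rose together. Cct6a, a further subunit, was counted among the other cytosolic chaperones and its value is not printed. Tcp1 (CCT1) was at 116 and 108 TPM without and 281 and 269 TPM with stimulus in KLF2+ cells, and at 108 and 94.4 and then 131 and 74.0 TPM in KLF2- cells. Tcp1 rose by 1.97 ± 0.34 (edgeR adjusted p = 0.0037), and 1.44 ± 0.22 after background correction. Cct2 was at 99.3 and 89.9 and then 168 and 168 TPM in KLF2+ cells, and between 77.8 and 89.1 TPM in all KLF2- libraries. It had the smallest p of the 7, with a rise of 1.51 ± 0.23 (edgeR adjusted p = 0.0024), and 0.98 ± 0.11 after background correction. Both stimulated KLF2+ libraries were the highest of the 8 for Tcp1 and Cct2. Without unstimulated KLF2+ replicate 1, 2 of the 7 subunits were called. Cct4 was at 131 and 118 and then 207 and 199 TPM in KLF2+ cells, and Cct8 at 171 and 177 and then 330 and 327 TPM. Cct3, Cct4, Cct5, Cct7 and Cct8 rose by 1.36 (Cct3) to 1.80 (Cct7), and by 0.84 to 1.28 after background correction. The 7 subunits of the set, which join in equal number in a ring, spanned 1.69 to 2.58 times from lowest to highest TPM within a library. Tcp1, Cct7 and Cct8 overlap other genes in the annotation (Acat3, Pradc1 and Usp16), as do Pdia6 (Atp6v1c2), Syvn1 (Mrpl49) and Dnaja1 (Gm6297), each on the other strand, and the treatment of strand is not given in the sources used here.

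The 3 mitochondrial genes rose as far as any class. Hspd1 (HSP60) was at 125 and 118 TPM without and 319 and 317 TPM with stimulus in KLF2+ cells, and at 105 and 93.9 and then 172 and 83.8 TPM in KLF2- cells. Hspd1 rose by 2.06 ± 0.38 (edgeR adjusted p = 0.0048), and 1.54 ± 0.27 after background correction. Hspe1 (HSP10), the lid of that chamber, was at 88.1 and 87.9 and then 248 and 237 TPM in KLF2+ cells, and at 88.2 and 71.6 and then 103 and 43.7 TPM in KLF2- cells. It rose by 2.13 ± 0.39 (edgeR adjusted p = 0.0049), and by 1.61 ± 0.32 after background correction. Hspd1 and Hspe1 start head to head on chromosome 1, so they share the stretch printed above, and the TPM of Hspd1 was 1.29 to 1.41 times that of Hspe1 in the 4 KLF2+ libraries. In KLF2- cells it was 1.19 and 1.31 times without and 1.67 and 1.92 times with stimulus. Hspa9 (mortalin) was at 107 and 99.7 and then 186 and 197 TPM in KLF2+ cells, and at 80.3 and 74.3 and then 117 and 64.7 TPM in KLF2- cells. Its rise was 1.56 ± 0.34 (edgeR adjusted p = 0.0091), and 1.04 ± 0.23 after background correction. The median of the 3 was 2.06, and 1.54 after background correction, the highest of the 6 classes under both. Without unstimulated KLF2+ replicate 1, 0 of the 3 were called by TMM.

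**Figure D2:**
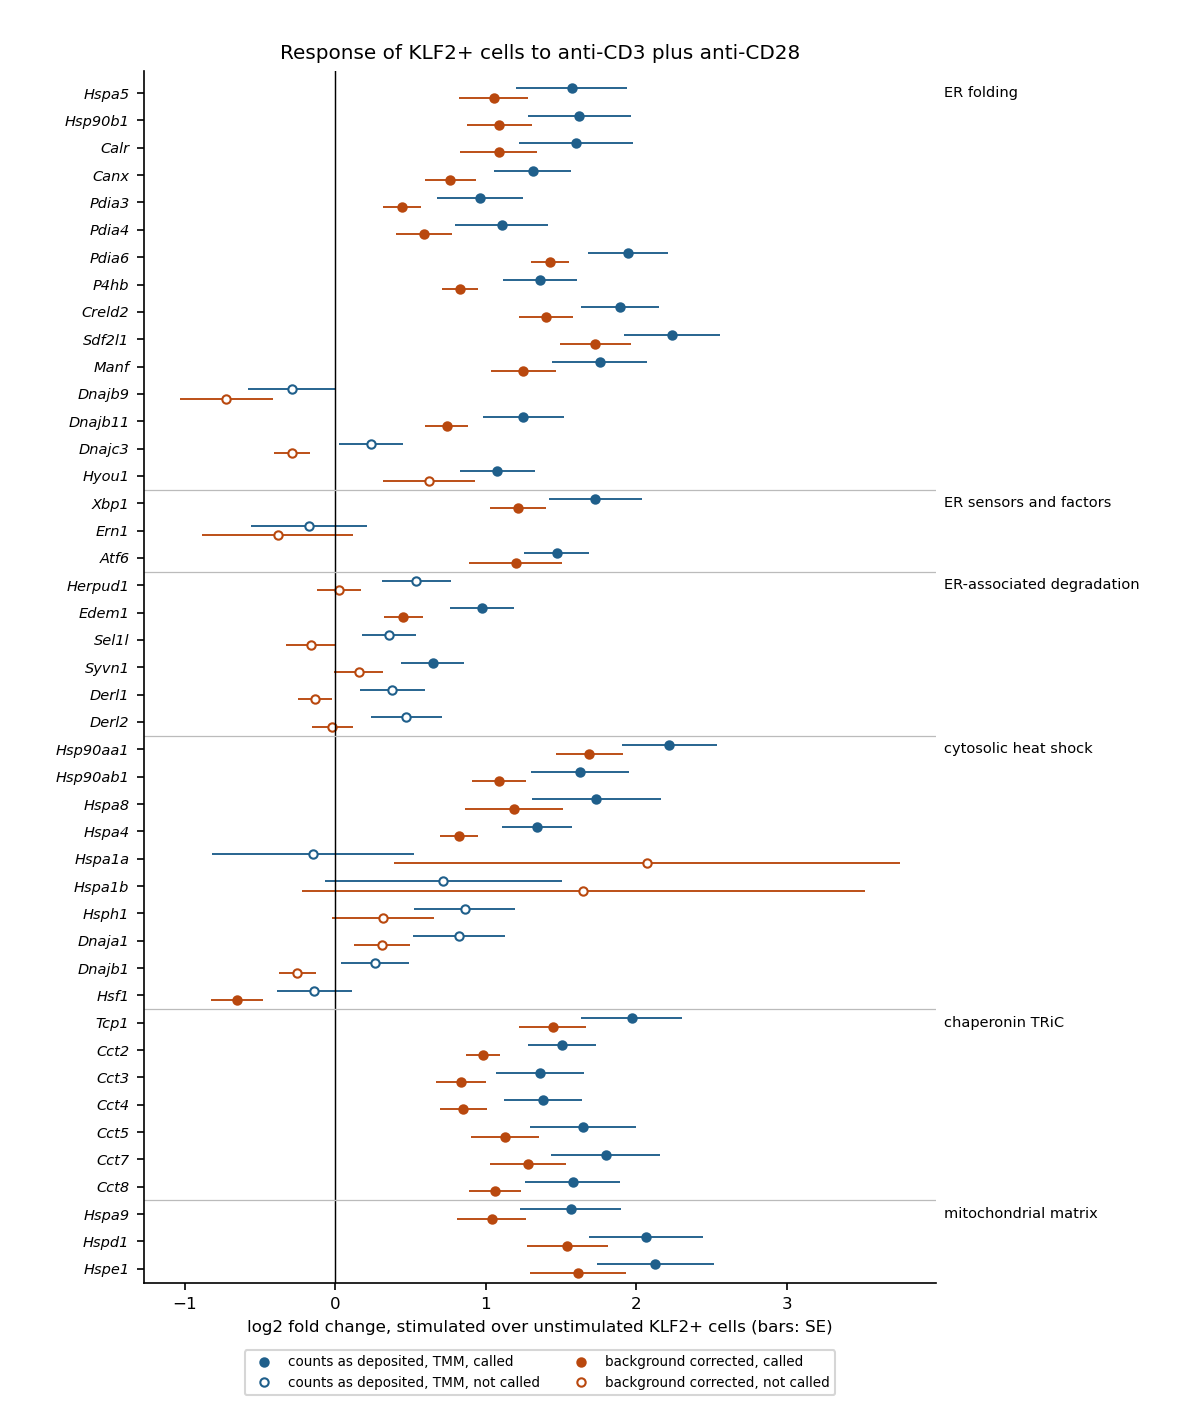
Log2 fold change of each gene, stimulated over unstimulated KLF2+ cells, by TMM on the counts as deposited (blue) and after background correction (orange), with bars for the SE and filled points for adjusted p under 0.05. Points of TRiC and mitochondrial genes were all filled and positive, whereas after correction 1 of 6 genes of ER-associated degradation was.

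Other cells in the sorted samples moved with this comparison as well. The summed level of 6 plasma cell genes, cells rich in ER chaperones, was 313 and 1071 CPM in unstimulated and 274 and 438 CPM in stimulated KLF2+ cells, and 35.8 to 397 CPM in the KLF2- libraries, with reads for all 6 in each library. Within that list Jchain was at 274 and 1010 and then 146 and 299 CPM in KLF2+ cells, whereas Mzb1 was at 17.2 and 29.2 and then 98.6 and 104 CPM. The myeloid sum went from 917 and 1672 CPM to 56.7 and 95.2 CPM in the same cells, and 10 of 12 myeloid genes were called lower by edgeR's test on TMM-scaled counts. So were 3 of 5 dendritic cell genes (summed at 52.9 and 51.2 and then 24.6 and 22.0 CPM), 3 of 5 of mast cells and basophils (70.0 and 63.8, then 19.9 and 17.1 CPM) and 2 of 3 of NK cells (45.7 and 58.7, then 12.7 and 17.4 CPM), with 0 higher in each of these 4 lists. By TMM 17.4% of all genes were lower in that response. Between the stimulated populations, 4 of 5 dendritic and 5 of 12 myeloid genes were lower in KLF2+ cells, with 1 and 2 higher. Of B cell genes 3 of 8 were higher and 0 lower, of plasma cell genes 3 of 6 and 1. Of CD4 T cell genes 6 of 7 were higher and 0 lower. Of all genes 39.7% were lower and 35.5% higher by TMM, so the myeloid and B cell counts lay near those shares. After background correction 4 of 5 dendritic and 3 of 11 myeloid genes were lower, with 1 and 2 higher. Of all genes 38.6% were then lower and 16% higher. B cell genes had 3 of 7 higher and 1 lower, plasma cell genes 1 of 6 and 1. CD4 T cell genes had 2 of 7 and 2. The part of any of these cells in the results was not tested, and fewer cells of a type and less RNA per cell cannot be told apart in these bulk samples.

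Compared by compartment, the summed TPM was higher in both stimulated KLF2+ libraries than in the other 6 for the ER, the cytosol and the mitochondria. ER genes summed to 2377 and 2341 TPM in unstimulated and 3964 and 3776 TPM in stimulated KLF2+ cells, a ratio of group means of 1.64. Cytosolic genes summed to 2511 and 2250 and then 4613 and 4304 TPM, a ratio of 1.87. Mitochondrial genes summed to 320 and 306 and then 753 and 752 TPM, a ratio of 2.40. So the mitochondrial share of the set was 6.15% and 6.24% without and 8.07% and 8.51% with stimulus in KLF2+ cells, and 5.03% to 6.68% in KLF2- cells. The share of ER-associated degradation went the other way, from 5.2% and 5.04% to 2.54% and 2.76%, with 4.93% to 7.32% in KLF2- cells. ER folding genes summed to 7.41 and 8.09 times the genes of ER-associated degradation in unstimulated and to 14.9 and 13.7 times in stimulated KLF2+ cells, and to 5.67 to 7.90 times in KLF2- cells. For each of these shares and ratios the stimulated KLF2+ pair lay outside the range of the other 6 libraries. These shares, and the ratio of ER folding to ER-associated degradation, were taken within a library and do not depend on scaling. The ratios of group means do depend on it. Background reads weigh more on low genes, and no test was run on any of these values.

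**Figure D3:**
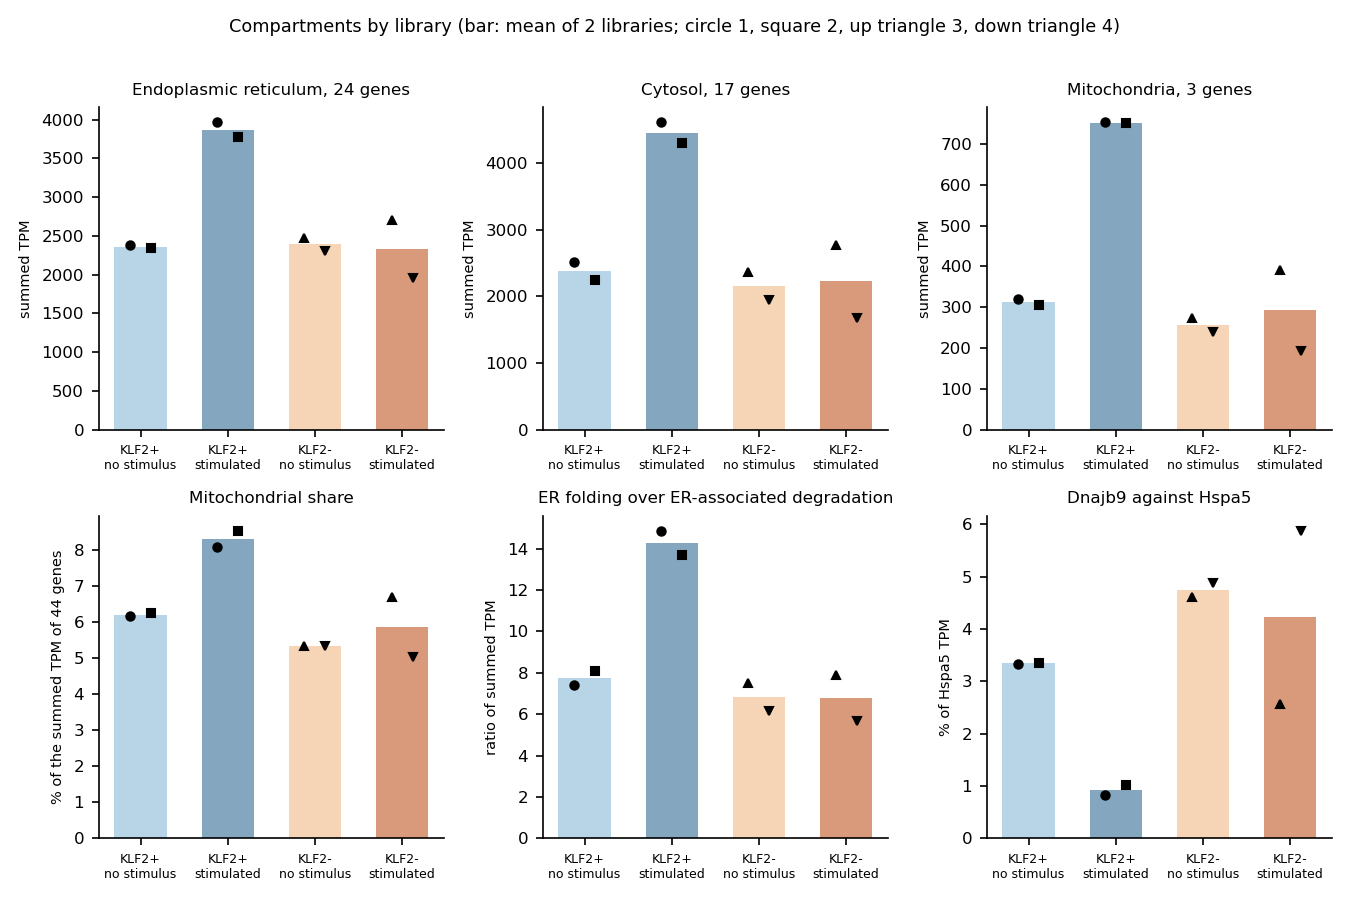
Summed TPM of the ER, cytosolic and mitochondrial genes (top), and the mitochondrial share, the ratio of ER folding to ER-associated degradation and Dnajb9 as a percent of Hspa5 (bottom), for each group, with bars for the mean of 2 libraries and symbols for the libraries. The stimulated KLF2+ libraries stood at 14.9 and 13.7 for the folding ratio, where the other 6 lay between 5.67 and 8.09.

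In KLF2- cells the same stimulus gave no call. Under edgeR's test 0 of the 44 genes were called in either direction, before or after background correction, as were 0% of all genes. An unadjusted edgeR p under 0.05 was found for 4 members and for 2802 of the 19146 genes tested. DESeq2 called 0 of the 44 as well, with 2 adjusted p-values not given, and 74 of all genes. Log2 fold changes ran from -0.78 (Derl1, a channel protein of ER-associated degradation) to 0.20 (Hyou1), with a median of -0.32, and of 0.06 after background correction, against 0.06 and 0.13 for all genes. Herpud1, which recruits substrates for degradation, was at 81.8 and 105 TPM without and 90.6 and 86.9 TPM with stimulus in these cells. Cct5 was at 155 and 145 and then at 230 and 125 TPM. For Cct5 the stimulated libraries lay on either side of the unstimulated ones, and for Herpud1 between them. Hspa5 had -0.35 ± 0.36 (edgeR adjusted p = 0.60) and Hspd1 0.03 ± 0.36 (edgeR adjusted p = 0.97). In TPM, 4 of the 44 had both stimulated libraries above the unstimulated pair and 3 had both below, against 48.2% and 10.4% of all genes.

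The 2 stimulated KLF2- libraries went apart in this gene set. By TPM, replicate 3 was above replicate 4 in 40 of the 44 genes, with a median ratio of 1.41, where 29.9% of all genes tested were above and the median ratio was 0.779. All 17 cytosolic genes and all 3 mitochondrial genes were among the 40, with 20 of 24 ER genes. The median ratio was 2.05 for the mitochondrial genes, 1.52 for TRiC, 1.54 for the heat shock group, 1.28 for ER folding and 1.05 for ER-associated degradation. Replicate 3 lay above both unstimulated KLF2- libraries in 34 of the 44 (59.4% of all genes), including 7 of 7 TRiC and 3 of 3 mitochondrial genes. Replicate 4 lay below both in 30 of the 44 (21.3% of all genes), including 6 of 7 TRiC and 3 of 3 mitochondrial genes. Hspd1 shows the spread: 172 TPM in replicate 3 and 83.8 TPM in replicate 4, around 105 and 93.9 TPM without stimulus. Replicate 4 had the fewest exon reads and the highest background share of the 8 libraries. After background correction without replicate 4, 4 members were higher: 1 of ER folding, 1 of TRiC and 2 of the mitochondria, against 1.73% of all genes, in a fit whose lone stimulated KLF2- library is assumed to vary like the other groups. Among them were Cct5 (0.62) and Hspa9 (0.60). By TMM without replicate 4, 0 members were called.

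**Figure D4:**
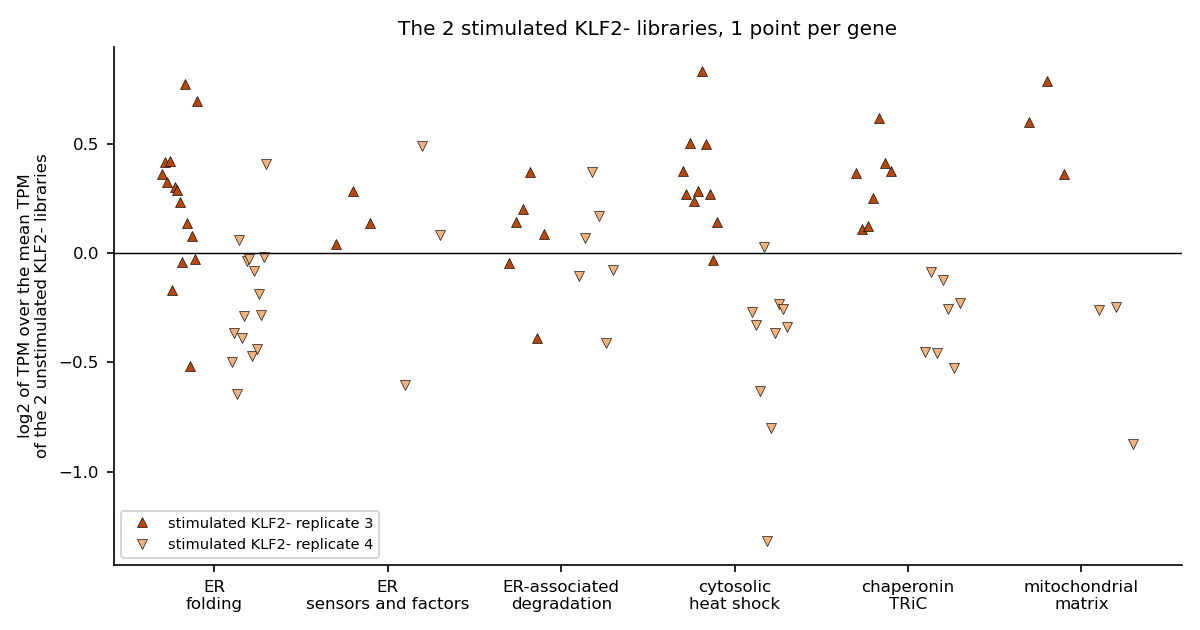
Log2 of the TPM in each stimulated KLF2- library over the mean of the 2 unstimulated KLF2- libraries, 1 point per gene and library, by role. Replicate 3 lay above replicate 4 in all TRiC, heat shock and mitochondrial genes and in 13 of 15 genes for ER folding.

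The difference between the responses asks whether KLF2+ cells answered the stimulus more than KLF2- cells. By edgeR's test of that interaction 31 of the 44 genes were higher and 0 lower, where 20.3% of all genes were higher and 15.5% lower. They were 12 of 15 for ER folding, Xbp1 and Atf6, 3 of 6 for ER-associated degradation (Herpud1, Edem1 and Derl1), 4 of 10 of the heat shock group, 7 of 7 TRiC subunits and 3 of 3 mitochondrial genes. The largest differences were 2.57 ± 0.55 for Hspe1, 2.49 ± 0.37 for Creld2 and 2.48 ± 0.44 for Hsp90aa1 (SE; edgeR adjusted p = 0.018, 0.0094 and 0.014). After background correction 12 were higher and 0 lower, against 3.58% and 8.24% of all genes: Pdia6, P4hb, Creld2, Sdf2l1, Manf, Dnajb11, Xbp1, Hsp90aa1, Hsp90ab1, Tcp1, Cct2 and Cct3. Hspe1 then missed narrowly (1.70 ± 0.45, edgeR adjusted p = 0.050), and its largest adjusted p over the alternatives was 0.084. With that correction 0 of the mitochondrial genes were called. The count rested on single libraries, in the set and over all genes. Without unstimulated KLF2- replicate 3 or 4, 0 members were higher, with 0.331% and 0.316% of all genes. Without unstimulated KLF2+ replicate 1, 4 were higher, with 1.64% of all genes, and without stimulated KLF2+ replicate 2, 18 were, with 5.64%.

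**Figure D5:**
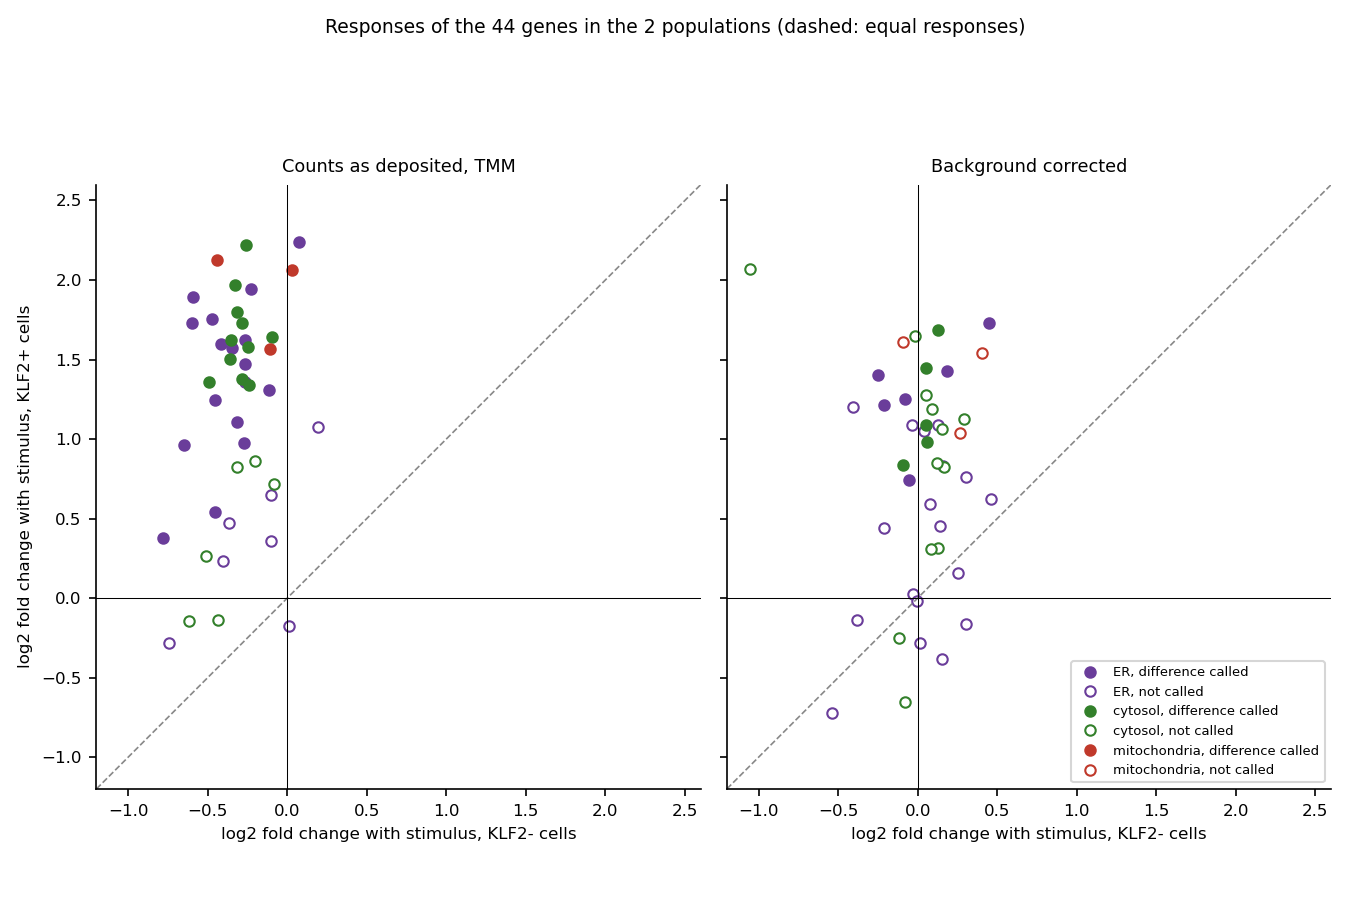
Log2 fold change with stimulus in KLF2- cells (x) and KLF2+ cells (y), 1 point per gene, coloured by compartment, filled where the difference was called; left by TMM, right after background correction, with the dashed line for equal responses. By TMM every member except Ern1 lay above the line, and after correction 12 points were filled.

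Between the stimulated populations most of the set was higher in KLF2+ cells, but how far depended on the scaling. By TMM 40 of the 44 genes were higher and 1, Ern1, was lower, against 35.5% and 39.7% of all genes. After background correction 28 were higher and 3 lower (Ern1, Dnajc3 and Sel1l), against 16% and 38.6% of all genes. With TMM taken from abundant genes alone (50 CPM or more) 27 were higher and 7 lower, against 11.9% and 58.3%. In TPM, 28 had both KLF2+ libraries above both KLF2- libraries and 11 had both below, against 14.1% and 74.9% of all genes. The median of the 44 was 2.11 by TMM, 0.97 after background correction, and 0.96 with TMM from abundant genes and no subtraction. TRiC and mitochondrial genes were higher in full under both, with medians of 2.48 and 2.7 by TMM and of 1.22 and 1.47 after correction. ER folding went from 14 to 11 of 15, ER-associated degradation from 6 to 1 of 6 and the heat shock group from 8 to 4 of 10. Creld2 was higher by 2.88 ± 0.28 (edgeR adjusted p = 0.00023), Hsp90aa1 by 3.15 ± 0.33 (0.00024), Cct2 by 2.43 ± 0.24 (0.00023) and Hspe1 by 3.10 ± 0.41 (0.00035). After background correction these were 1.71, 1.92, 1.17 and 1.89.

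Some genes turned over between the scalings. Sel1l, the adaptor of Syvn1, stood at 17.3 and 19.0 TPM in stimulated KLF2+ cells and at 33.3 and 37.6 TPM in stimulated KLF2- cells, with no overlap. Its log2 difference was 0.48 ± 0.18 by TMM (edgeR adjusted p = 0.035) and -0.75 ± 0.17 after background correction, both called. Dnajc3 likewise went from 0.83 ± 0.21 to -0.43 ± 0.12. Herpud1, Syvn1, Dnajb1 and Hsf1 were called higher by TMM (0.98, 1.11, 1.22 and 0.72) and had values of -0.30, -0.02, -0.02 and -0.47 after correction with no call. Ern1 was lower under both, by -1.09 ± 0.39 (edgeR adjusted p = 0.029) and -1.89 ± 0.52. Leaving out any 1 of the 4 stimulated libraries, or replicate 3 of unstimulated KLF2- cells, ended that call by TMM.

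Without stimulus the populations were not told apart by this set. Of the 44 genes 0 were called by edgeR, where 1.07% of all genes were higher and 1.25% lower. An unadjusted edgeR p under 0.05 was found for 8 members and for 3672 of the 19146 genes tested. After background correction 0 of the 44 were called as well, with 0.974% and 3.05% of all genes. DESeq2 called 0 of the 44 and 1148 of all genes. The smallest adjusted p was 0.19. Log2 differences had a median of 0.44, and of 0.11 after correction, against -0.11 and -0.21 for all genes. Mitochondrial genes were at 0.53 (Hspe1) to 0.80 (Hspa9) and TRiC subunits at 0.52 to 0.79. Hspa1a and Hspa1b had the lowest values, -1.84 ± 0.67 and -2.03 ± 0.80, and Ern1 had -0.91 ± 0.39. In KLF2+ replicate 1 the reads of Hspa1a and Hspa1b were below the background level, so the size of their difference is uncertain. In TPM, 16 of the 44 had both KLF2+ libraries above and 11 had both below the KLF2- pair, against 11.2% and 48.6% of all genes. For Hspa1a, Hspa1b and Ern1 the 2 KLF2+ libraries lay below the 2 KLF2- libraries in TPM and in CPM.

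Further genes of the pathways were counted from 4 lists that hold no member, to be read beside the 19.7% of all genes that were higher in the KLF2+ response by TMM and the 12.7% after background correction. In the KLF2+ response, 5 of 11 genes of the PERK arm were higher and 0 lower, and 2 after background correction. Asns, an amino acid enzyme that ATF4 drives, rose by 3.19 and 2.77 under the 2 scalings, and Eif2s1, the target of PERK, by 1.53 and 1.02. Chac1 (2.42) and Atf3 (1.25) lost their calls after correction, and 6 genes did not pass under either. Among 29 other genes for ER folding and quality control, 13 were higher, and 9 after correction with 1 lower (Creb3, -0.42). Ssr1 and Ssr2, subunits of a complex at the translocon, rose by 1.32 and 1.77, and by 0.84 and 1.27 after correction, and Ganab, a glucosidase that trims N-glycans, by 1.00 and 0.48. Among 25 other cytosolic chaperones 18 were higher, and 9 with 1 lower (Dnajc7, -0.61) after correction. Creb3 and Dnajc7 are named because they were the sole genes of these lists called lower, a choice made after their values were seen. Other genes with negative values were not called. Stip1, which links HSP70 to HSP90, rose by 1.75 and 1.21, and Pfdn4 of prefoldin, which hands actin and tubulin to TRiC, by 1.58 and 1.09. Among 14 other mitochondrial folding and protease genes 11 were higher, and 3 after correction: Lonp1 (1.14 and 0.62), Afg3l2 (1.27 and 0.76) and Trap1 (1.41 and 0.91), which are 2 proteases and the mitochondrial HSP90. In the KLF2- response 0 of these genes were called in either fit.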

How the data were processed

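RNA was sequenced from 8 libraries of sorted mouse CD4 T cells. The deposited estimated counts are exon reads per gene by HOMER (mm10 RefSeq, unadjusted, in steps of 0.5) per the file headers, and were rounded here. The second deposited table holds TPM by the authors, whose columns sum to 503794 to 523430 over the listed genes. The submitters' processing notes name STAR 2.7.9, HOMER 4.11, SAMtools and DESeq2. Labels gave each library's group.

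Genes kept by filterByExpr (19146) were fitted in edgeR 4.0.16 (R 4.3.3) over all 8 libraries with TMM, 1 coefficient per group and 4 residual degrees of freedom. The quasi-likelihood F test gave 5 contrasts, with Benjamini-Hochberg adjustment over all genes and calls at adjusted p under 0.05. SE is the absolute log2 fold change over the square root of F. Background correction subtracted receptor-gene read density times exon length, took TMM from genes of at least 50 CPM and tested 15292 genes. Alternatives were DESeq2 1.42.0, limma 3.58.1 on log2(TPM + 1) or log2(TPM + 0.1) of genes with at least 1 TPM in 2 libraries, other filters and scaling, libraries left out and a replicate block. The models were also run on simulated counts with known changes, balanced up and down. The simulated libraries shared 1 gene profile apart from these changes. So they do not show how the models deal with background that differs between libraries. Counting precision is set by 2.99 M to 36.6 M exon reads per library, which covers counting error only.

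The members, gene lists and tests were chosen with earlier results of these data known. Any member could be named. Values per library mostly follow the smallest p in each class, up to 4, plus fixed regulators and abundant chaperones. Dnajb9 and Dnajc3 lie outside that rule. They were shown as the ER folding genes not called in the KLF2+ response, a choice that rests on their values.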

Additional observations from a re-analysis of the deposited data

Results flagged for a closer look

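The response to stimulation differed between KLF2+ and KLF2- cells for 31 of the 44 genes, by edgeR's interaction test with Benjamini-Hochberg adjustment over all genes, where 20.3% of all genes were higher and 15.5% lower. After background correction 12 of the 44 were called, and 0 were when either unstimulated KLF2- library was left out. Values are the log2 response of KLF2+ cells minus that of KLF2- cells. In ER folding the differences were 1.92 for Hspa5, 1.89 for Hsp90b1, 2.02 for Calr, 1.42 for Canx, 1.61 for Pdia3, 1.42 for Pdia4, 2.17 for Pdia6, 1.62 for P4hb, 2.49 for Creld2, 2.17 for Sdf2l1, 2.23 for Manf and 1.70 for Dnajb11. They were 2.33 for Xbp1 and 1.73 for Atf6. In ER-associated degradation they were 1.00 for Herpud1, 1.25 for Edem1 and 1.16 for Derl1. In the cytosol they were 2.48 for Hsp90aa1, 1.98 for Hsp90ab1, 2.02 for Hspa8 and 1.58 for Hspa4. TRiC subunits had 2.30 for Tcp1, 1.86 for Cct2, 1.85 for Cct3, 1.66 for Cct4, 1.74 for Cct5, 2.11 for Cct7 and 1.83 for Cct8. In the mitochondria they were 1.67 for Hspa9, 2.04 for Hspd1 and 2.57 for Hspe1.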

How the results depend on the processing

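Groups of 2 libraries and the thin exon coverage of the stimulated KLF2- libraries limit these results. Leaving out 1 library left 38 to 40 members higher between stimulated populations, 0 to 1 lower, and 0 called in the KLF2- response and without stimulus. In the KLF2+ response 13 to 35 members were higher (ER 9 to 20, cytosol 4 to 13, mitochondria 0 to 3). For the difference in response the ranges were 0 to 37 (ER 0 to 20, cytosol 0 to 14, mitochondria 0 to 3). The mitochondrial TPM ratio between stimulated populations ranged from 1.92 to 3.92. In the KLF2+ response and the difference, counts over all genes also moved with the library left out. The shares of all genes beside the smallest of these member counts are given above. The cause of each change given here was not tested.

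After background correction, between stimulated populations 3 members were lower and 14 ER members higher; in the KLF2+ response 1 was lower; and in the difference 12 were higher (ER 7, cytosol 5, mitochondria 0). With TMM from genes of 50 CPM or more, 7 were lower and 13 ER members higher between stimulated populations, 1 was lower in the KLF2+ response, and 11 ER members were higher in the difference. In limma on log2 TPM (pseudocount 1, pseudocount 0.1, and pseudocount 1 with no filter), 25, 26 and 25 were higher and 8, 8 and 8 lower between stimulated populations, with 11, 12 and 11 of the ER. In the KLF2+ response those fits gave 3, 4 and 3 lower and 11, 11 and 9 of the ER higher. In the difference they gave 14, 14 and 5 higher (ER 6, 6 and 3, cytosol 7, 7 and 2, mitochondria 1, 1 and 0). Of all 19028 genes in the filtered fit with pseudocount 1, 1796 were higher and 11825 lower between stimulated populations. In the KLF2+ response that fit gave 1498 higher and 2973 lower, and in the difference 686 and 3822. Background correction without stimulated KLF2- replicate 4, chosen after seeing the data, gave 2 higher without stimulus (cytosol 1, mitochondria 1), 4 lower and 13 ER members higher between stimulated populations, 2 lower in the KLF2+ response, 4 higher in the KLF2- response (ER 1, cytosol 1, mitochondria 2), and 12 higher (ER 4, cytosol 6) and 1 lower in the difference.

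Some genes changed direction between stimulated populations. With TMM from genes of 50 CPM or more the values were -0.94 for Dnajb9, -0.36 for Dnajc3, -0.20 for Herpud1, -0.72 for Sel1l, -0.070 for Syvn1 and -0.44 for Hsf1. After background correction they were -0.43 for Dnajc3, -0.30 for Herpud1, -0.75 for Sel1l, -0.018 for Syvn1, -0.022 for Dnajb1 and -0.47 for Hsf1, and with stimulated KLF2- replicate 4 also left out -0.41, -0.30, -0.65, -0.15, -0.12 and -0.70. In limma with pseudocount 1, with and without the filter, they were -1.05 for Dnajb9, -0.59 for Dnajc3, -0.023 for Hyou1, -0.44 for Herpud1, -0.081 for Edem1, -0.93 for Sel1l, -0.30 for Syvn1, -0.052 for Derl2, -0.20 for Dnajb1 and -0.65 for Hsf1. With pseudocount 0.1 they were -1.18, -0.60, -0.025, -0.45, -0.082, -0.96, -0.31, -0.053, -0.20 and -0.66 in that order. In the KLF2+ response limma gave -0.43 (pseudocount 1, with and without the filter) and -0.44 (0.1) for Dnajc3, -0.032 (1, with and without the filter) and -0.033 (0.1) for Syvn1, and -0.40 (0.1) for Dnajb1. Background correction without replicate 4 gave -0.30 for Dnajc3 there, 0.62 for Cct5 and 0.60 for Hspa9 in the KLF2- response, and -0.80 for Hsf1 in the difference. Herpud1 had -0.067 (pseudocount 1, with and without the filter) and -0.068 (0.1) in the difference.

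Summed over CPM in place of TPM, the ratios were 1.25 (ER), 1.42 (cytosol) and 1.64 (mitochondria) without stimulus, 3.99, 5.19 and 6.28 with stimulus, and 2.45, 2.95 and 3.62 in the KLF2+ response. Without its most abundant member, the KLF2+ response was 1.72 for the ER and 2.27 for the mitochondria.

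Over all genes the counts moved by more than 1.5 times under some settings other than a left-out library. Between populations without stimulus 127 to 665 genes were higher and at least 335 lower. With stimulus 1752 to 6883 were higher and at most 13591 lower. In the KLF2+ response 1265 to 4674 were higher and 1505 to 6177 lower. In the KLF2- response 0 to 311 were higher and 0 to 459 lower. In the difference 275 to 5037 were higher and at most 5820 lower.

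Stimulated and unstimulated libraries of a population share replicate numbers. Deviations of same-numbered libraries correlated at 0.660 in KLF2+ and 0.287 in KLF2- cells over 10395 genes, but with 2 pairs each and no label of a shared animal or day they share only a number. With the replicate block 33 members were higher in the KLF2+ response, 0 were called in the KLF2- response and 35 were higher in the difference. Of 19146 genes, 4674 were then higher and 6177 lower in the KLF2+ response, 311 and 459 in the KLF2- response, and 5037 and 5820 in the difference. No paired analysis was possible for KLF2+ against KLF2- because those groups share no number.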
